A study of Mus musculus with 16 samples.

Results

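The sterol synthesis genes examined here are 9 enzymes of cholesterol synthesis, Hmgcs1, Idi1, Fdps, Fdft1, Sqle, Lss, Cyp51, Nsdhl and Dhcr7, together with Srebf2, which encodes the transcription factor SREBP-2. They were chosen by symbol, with earlier results of these data known. All 10 were measured among 12394 genes with a probe set annotated to a single symbol. Each gene is represented by its probe set with the highest mean over the 16 arrays, and its other probe sets serve as a check. The arrays measured RNA of CD11b-positive, Gr1-negative cells, labelled as tumour-associated macrophages, which were sorted from gliomas of 16 mice, with 1 array per mouse. The 8 BLZ945 mice received a CSF-1R kinase inhibitor by daily gavage for 7 days, at 200 mg per the label, which gives no body weight. The 8 Vehicle mice received 20% captisol on the same schedule. All mice in both groups were Nestin-Tv-a;Ink4a/Arf-/- on a mixed background, and their gliomas were induced by intracranial injection of DF-1 cells that release an RCAS virus carrying PDGF-B. The host mice keep their own microglia and blood monocytes, and the sort does not separate macrophages from other CD11b-positive, Gr1-negative cells. The BLZ945 group held 5 females and 3 males, 4 of them 11.29 and 4 of them 13.14 weeks old, whereas the Vehicle group held 4 females and 4 males, of which 4 were 11.29, 2 were 11.43 and 2 were 12.29 weeks old.

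Cholesterol synthesis begins with acetyl units that are built into mevalonate and then into isoprenoids, which are joined into squalene, closed into the first sterol, lanosterol, and trimmed to cholesterol. When the endoplasmic reticulum is poor in sterol, SCAP escorts SREBP-2 to the Golgi, where proteases release a fragment that enters the nucleus and raises transcription of most genes of the pathway, whereas INSIG proteins hold the complex back when sterol is plentiful. Macrophages also take up cholesterol from lipoproteins and from engulfed cells and myelin, and export it through transporters under the control of the sterol-sensing receptor LXR.

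RefSeq promoter windows on GRCm38.p6, each from 250 bases before to 50 bases after an annotated start, were at hand for 7 of the 10 genes. Those of Hmgcs1, Idi1, Cyp51, Srebf2 and Nsdhl are printed, because they include the 2 genes with a window that fell under BLZ945, the 3 genes with a match to an SREBP motif and the gene whose level differed least. Capitals mark the SREBP matches, described next, and the CCAAT box, read as CCAAT or as its reverse complement ATTGG. The windows lie at chr13:119690101-119690400 on the plus strand (Hmgcs1), chr13:8885356-8885655 on the plus strand (Idi1), chr5:4104648-4104947 on the minus strand (Cyp51), chr15:82147019-82147318 on the plus strand (Srebf2) and chrX:72918271-72918570 on the plus strand (Nsdhl).
Hmgcs1: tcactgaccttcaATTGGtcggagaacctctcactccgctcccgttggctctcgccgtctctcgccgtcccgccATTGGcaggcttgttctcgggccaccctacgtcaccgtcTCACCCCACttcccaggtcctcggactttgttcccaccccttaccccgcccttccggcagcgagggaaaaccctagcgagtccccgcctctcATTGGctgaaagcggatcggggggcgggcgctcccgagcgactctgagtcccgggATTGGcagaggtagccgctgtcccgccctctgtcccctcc
Idi1: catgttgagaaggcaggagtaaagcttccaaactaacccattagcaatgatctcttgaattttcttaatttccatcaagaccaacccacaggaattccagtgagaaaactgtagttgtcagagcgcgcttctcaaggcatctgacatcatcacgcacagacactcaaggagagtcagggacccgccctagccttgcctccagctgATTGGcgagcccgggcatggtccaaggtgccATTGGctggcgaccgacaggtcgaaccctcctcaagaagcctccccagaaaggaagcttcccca
Cyp51: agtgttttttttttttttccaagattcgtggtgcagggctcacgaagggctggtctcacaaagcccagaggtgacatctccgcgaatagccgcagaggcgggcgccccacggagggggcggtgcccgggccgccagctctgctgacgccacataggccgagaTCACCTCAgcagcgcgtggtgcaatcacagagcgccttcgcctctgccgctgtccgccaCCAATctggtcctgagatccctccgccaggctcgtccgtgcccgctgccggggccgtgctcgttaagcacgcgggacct
Srebf2: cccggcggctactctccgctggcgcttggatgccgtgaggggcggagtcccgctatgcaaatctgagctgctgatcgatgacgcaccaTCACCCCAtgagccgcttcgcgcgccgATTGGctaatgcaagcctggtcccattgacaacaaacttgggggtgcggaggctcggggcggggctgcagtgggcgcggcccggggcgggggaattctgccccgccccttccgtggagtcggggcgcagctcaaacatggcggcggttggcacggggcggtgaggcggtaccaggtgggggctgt
Nsdhl: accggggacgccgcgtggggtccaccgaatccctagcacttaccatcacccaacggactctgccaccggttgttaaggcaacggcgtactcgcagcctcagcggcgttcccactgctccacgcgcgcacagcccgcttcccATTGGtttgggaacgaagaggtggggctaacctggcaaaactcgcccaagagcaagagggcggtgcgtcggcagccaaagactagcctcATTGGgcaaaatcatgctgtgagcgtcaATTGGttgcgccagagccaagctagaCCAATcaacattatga

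The sterol regulatory element TCACNCCAC was searched on both strands and was found in the Hmgcs1 window only, at position -137 from the start, while 1.243% of 32817 mouse windows of the same length hold it. A shorter related motif, TCACCNCA, has its free base at another place and was added after the windows had been seen. It occurred in 4.418% of all windows, and its matches here are no test against that share. Of the 7 genes with a window, 3 held it, at -137 in Hmgcs1, where both motifs match, -88 in Cyp51 and -162 in Srebf2. CCAAT boxes, bound by NF-Y, a partner of SREBP on many sterol promoters, were present in all 7 genes against 37.39% of all windows. The GC box GGGCGG, read on both strands, was likewise present in all 7 genes, against 35.63% of all windows. Dhcr7 has 3 windows and was counted where any of them held the motif. A match describes letters in the window and does not show binding, and no window was used here for Fdps, Fdft1 or Sqle.

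BLZ945 macrophages had lower transcript levels of 4 of the 10 genes: Hmgcs1, Idi1, Fdps and Sqle. None of the 10 was higher by the same test, limma across all 12394 genes with Benjamini-Hochberg adjustment and a threshold of 0.05. On the linear scale Fdps fell by 29.3%, Hmgcs1 fell by 35.7%, Idi1 fell by 45.2% and Sqle fell by 47.6%. These are enzymes of the mevalonate and isoprenoid steps and at squalene epoxidase. Lss and Nsdhl had almost equal means in the groups, and the mean of Dhcr7, the last enzyme of the route, was above Vehicle without passing the adjusted test. Over all genes, 5.34% were lower and 2.6% were higher, so that 7.94% were called in either direction. The median difference, BLZ945 minus Vehicle, was -0.47 log2 units over the 10 genes and 0.07 over all genes tested. Groups without overlap were found in 0 of the 10 genes, against 1.04% of all genes with BLZ945 lower and 0.315% with BLZ945 higher. At an unadjusted p under 0.05, 5 of the 10 genes and 22.6% of all genes passed. Because the 10 genes were chosen with earlier results of these data known, these comparisons with all genes are descriptive.

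**Figure D1:**
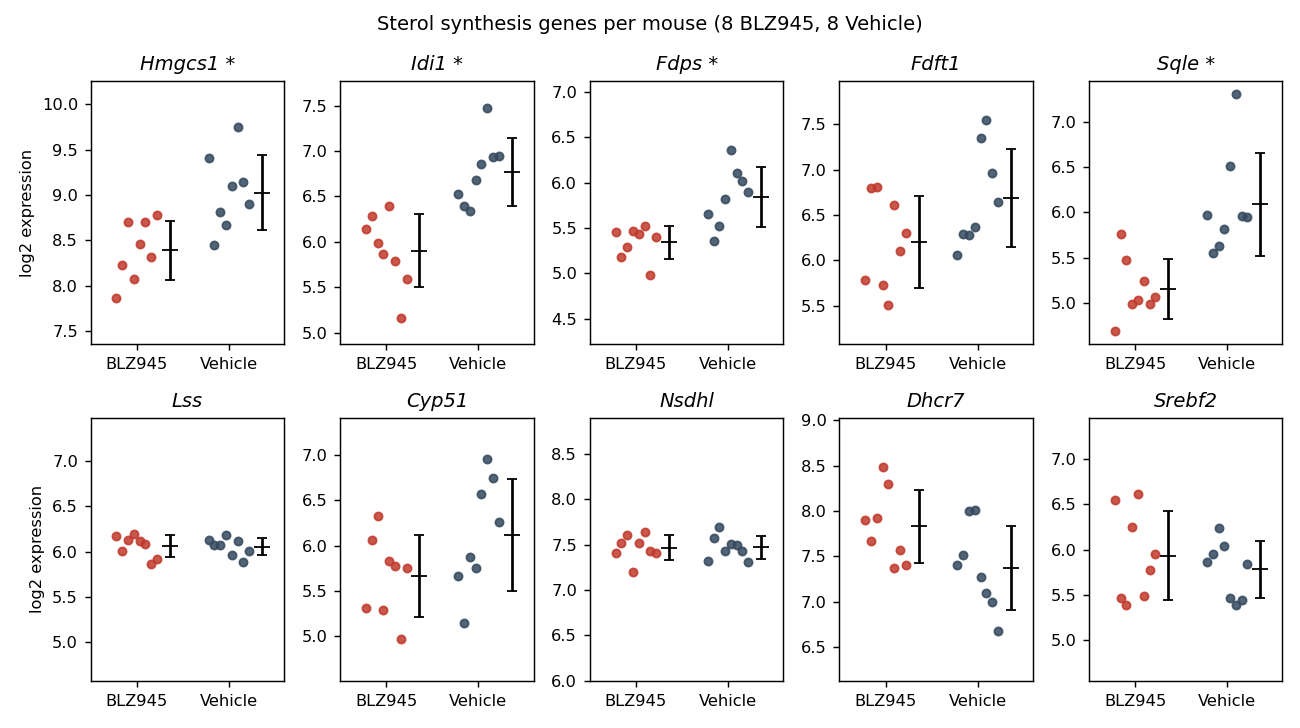
Log2 expression of each of the 10 genes in 8 BLZ945 mice (left, red) and 8 Vehicle mice (right, dark blue), 1 point per mouse in the order of replicate number, with the mean ± SD as a bar and an asterisk for an adjusted p under 0.05; the axis of every panel spans the same number of log2 units. Idi1 and Sqle stand apart most, with 7 of 8 BLZ945 mice below all Vehicle mice, while Lss and Nsdhl overlap throughout.

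Hmgcs1 encodes the cytosolic synthase that forms HMG-CoA, the substrate of HMG-CoA reductase. Its log2 level was 7.86 at the lowest, 8.38 at the median and 8.78 at the highest in BLZ945 mice, against 8.45, 8.99 and 9.75 in Vehicle mice. The ranges overlapped, but 4 of 8 BLZ945 mice lay below every Vehicle mouse and all 8 lay below the Vehicle median. The mean was 8.39 ± 0.33 in BLZ945 and 9.03 ± 0.42 in Vehicle (SD, n = 8 each), a difference of -0.64 (SE 0.178, limma 95% interval -1.01 to -0.26, adjusted p = 0.0324). An exact two-sided permutation test over all 12870 labellings of the mice gave an unadjusted p of 0.00404. The adjusted call was lost, with adjusted p between 0.0513 and 0.0671, when BLZ945 mouse 1, 2, 4, 5 or 7 or Vehicle mouse 1, 5, 6 or 7 was left out. The probe set used is of a type, marked _x_at, that can bind related transcripts, and the other 3 probe sets of Hmgcs1 had differences of -0.52, -0.44 and -0.60, none of which passed across all probe sets (adjusted p = 0.227, 0.245 and 0.0917).

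Idi1 encodes the isomerase that interconverts isopentenyl and dimethylallyl diphosphate, the building blocks of all isoprenoids. In BLZ945 mice its log2 level was 5.16 at the lowest, 5.93 at the median and 6.40 at the highest, against 6.34, 6.77 and 7.48 in Vehicle mice. A single BLZ945 mouse reached the Vehicle range, and 7 of 8 lay below every Vehicle mouse. Idi1 averaged 5.90 ± 0.40 in BLZ945 and 6.77 ± 0.37 in Vehicle (SD, n = 8 each), a difference of -0.87 (SE 0.182, interval -1.25 to -0.49, limma adjusted p = 0.00588). By exact two-sided permutation the unadjusted p was 0.000466. The call was kept in each of the 16 fits that left out 1 mouse. The dimmer second probe set of Idi1 differed by -1.04, with an adjusted p of 0.0506 over all probe sets.

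Fdps, farnesyl diphosphate synthase, makes the isoprenoid from which squalene, dolichol and protein prenyl groups derive. Its log2 level ranged from 4.98 through a median of 5.42 to 5.53 in BLZ945 mice, and from 5.35 through 5.86 to 6.36 in Vehicle mice. All 8 BLZ945 mice were below the Vehicle median, and 3 were below every Vehicle mouse. The means were 5.34 ± 0.18 in BLZ945 and 5.84 ± 0.33 in Vehicle (SD, n = 8 each), a difference of -0.50 (SE 0.136, interval -0.78 to -0.21, limma adjusted p = 0.029, exact two-sided permutation p = 0.00218). The call was lost at adjusted p between 0.0517 and 0.0645 without BLZ945 mouse 2 or 7 or Vehicle mouse 5, 6, 7 or 8. A second probe set, among the dimmest 3.87% of probe sets by its mean, had a difference of 0.27 in the opposite direction that did not pass (adjusted p = 0.295).

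Fdft1, squalene synthase, commits farnesyl diphosphate to the sterol branch. Log2 levels were 5.50, 6.21 and 6.81 (lowest, median and highest) in BLZ945 mice, against 6.06, 6.50 and 7.55 in Vehicle mice. The groups overlapped over much of their range, with 3 BLZ945 mice below and 3 Vehicle mice above all mice of the other group. The difference of -0.48 had a limma interval of -0.98 to 0.02 and an adjusted p of 0.24. The probe set used for Fdft1 is also of the _x_at type, as for Hmgcs1. The 3 other probe sets of Fdft1 differed by -0.23, -0.07 and -0.01, and none passed.

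Sqle, squalene epoxidase, adds oxygen to squalene and is known as a rate-limiting step of the sterol branch. Its log2 level was 4.69 at the lowest, 5.05 at the median and 5.76 at the highest in BLZ945 mice, against 5.55, 5.95 and 7.30 in Vehicle mice. Only BLZ945 mouse 2 entered the Vehicle range, and the highest Vehicle value belonged to mouse 6. Sqle averaged 5.15 ± 0.33 in BLZ945 and 6.09 ± 0.57 in Vehicle (SD, n = 8 each). This was the largest fall of the 10 genes, -0.93 log2 units (SE 0.215, interval -1.38 to -0.48, limma adjusted p = 0.0107, exact two-sided permutation p = 0.000622), and its call was kept in each of the 16 fits that left out 1 mouse. Sqle had no second probe set with its symbol alone.

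Lss, lanosterol synthase, closes oxidised squalene into the first sterol ring. It had log2 levels of 5.86 to 6.19 with a median of 6.10 in BLZ945 mice, against 5.89 to 6.18 with a median of 6.07 in Vehicle mice. The groups overlapped over nearly the whole range, and the limma interval of the difference, -0.17 to 0.19, bounds a change in either direction to under 0.2 log2 units on this probe set (adjusted p = 0.972). The other probe sets of Lss, both dimmer, differed by 0.16 and -0.18 without passing.

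Cyp51, the lanosterol demethylase, takes the first step after lanosterol. Its log2 level was 4.97, 5.77 and 6.33 (lowest, median and highest) in BLZ945 mice, against 5.15, 6.07 and 6.95 in Vehicle mice. Although 7 of 8 BLZ945 mice lay below the Vehicle median, only 1 lay below every Vehicle mouse. The difference of -0.45 had an interval of -0.97 to 0.06 and a limma adjusted p of 0.281, so neither no change nor a fall as large as that of Idi1 lies outside it. A second probe set followed the same mice (r = 0.87 over 16 arrays) with a difference of -0.29. The dimmest of the 3 Cyp51 probe sets had a difference of 0.04 and did not follow them (r = -0.34).

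Nsdhl, a dehydrogenase that takes part in removing methyl groups from the sterol ring, had log2 levels of 7.20 to 7.64 in BLZ945 mice, with a median of 7.47, against 7.30 to 7.70 in Vehicle mice, with a median of 7.46. No shift was visible between the groups. Its interval of -0.20 to 0.19 was nearly as narrow as that of Lss (limma adjusted p = 0.982). Dhcr7 encodes 7-dehydrocholesterol reductase, whose product is cholesterol and whose substrate is also the precursor of vitamin D. Its log2 level was 7.38, 7.78 and 8.48 (lowest, median and highest) in BLZ945 mice, against 6.67, 7.34 and 8.01 in Vehicle mice. All 8 BLZ945 mice lay above the Vehicle median, yet only 2 lay above every Vehicle mouse. The difference of 0.46 (interval 0.03 to 0.88) had an unadjusted limma p of 0.0355 and an adjusted p of 0.182.

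Srebf2, the gene of SREBP-2, had log2 levels of 5.39, 5.86 and 6.62 (lowest, median and highest) in BLZ945 mice, against 5.39, 5.86 and 6.24 in Vehicle mice. Medians and lowest values were nearly the same, and 3 BLZ945 mice exceeded every Vehicle mouse. The difference was 0.15 with an interval of -0.25 to 0.56 (limma adjusted p = 0.643), and a second probe set gave -0.06. Transcript level does not report how much SREBP-2 is processed. Over the 13 probe sets of the 10 genes that were not used for the main values, 10 had a negative difference and 0 passed an adjusted p of 0.05 across 20393 probe sets.

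**Figure D2:**
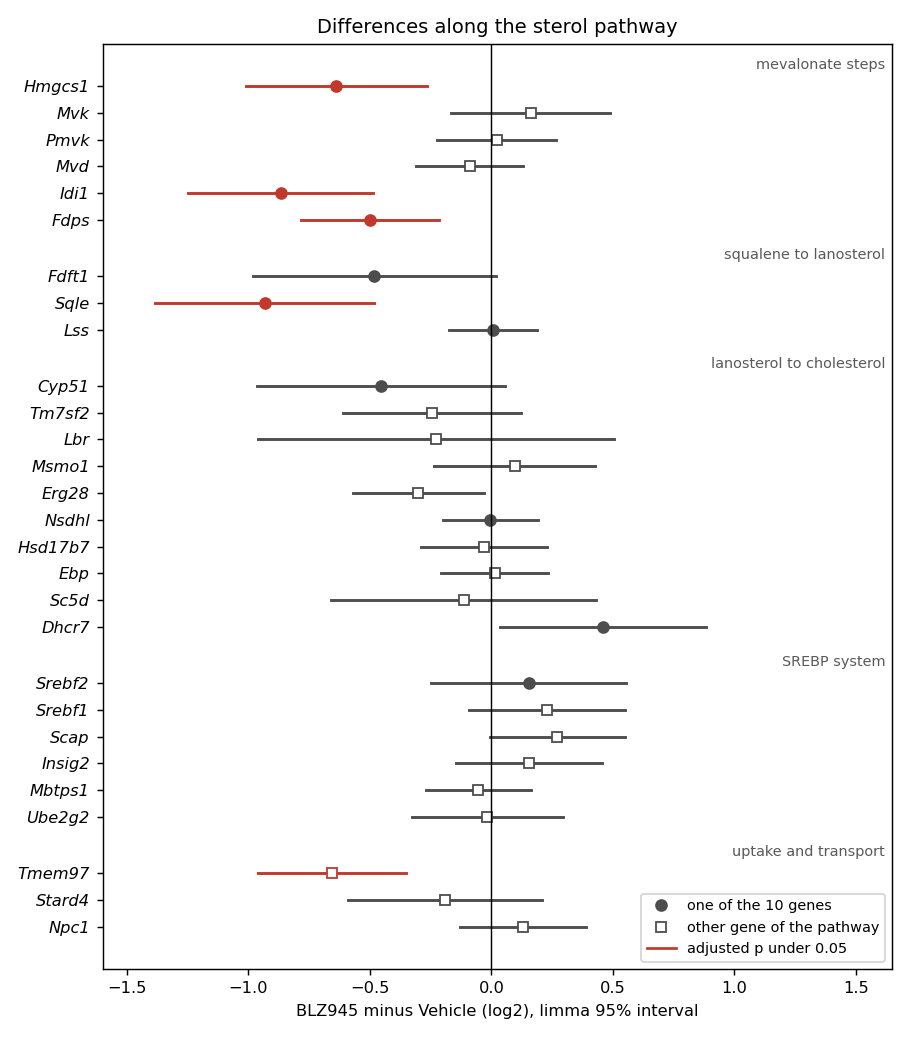
BLZ945 minus Vehicle in log2 units with limma 95% intervals for the 10 genes (circles) and the other measured genes of the pathway, its regulators and sterol transport (squares), in the order of the route; red marks an adjusted p under 0.05. Hmgcs1, Idi1, Fdps and Sqle lie between -0.93 and -0.50, the enzymes Mvk, Pmvk and Mvd between them in the route lie near 0, and Tmem97 is the other red gene.

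Other enzymes of the route did not share the falls in a way the test could call. Of 13 further sterol synthesis enzymes listed, 10 were measured, 0 passed in either direction, and their median difference was -0.06 with a range of -0.30 to 0.16. The smallest p-values among them belonged to Erg28, a scaffold of the enzymes that remove methyl groups from sterols, with -0.30 (limma adjusted p = 0.168), and Tm7sf2, a sterol reductase, with -0.24 (adjusted p = 0.414). HMG-CoA reductase and Acat2 were not analysed here. Of 10 regulators of SREBP listed, 5 were measured and 0 passed, with a median of 0.15. Scap, the escort of SREBP, differed by 0.27 (adjusted p = 0.233) and Srebf1, the gene of SREBP-1, by 0.23 (adjusted p = 0.382).

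Among sterol uptake and transport genes under SREBP-2, 3 of 6 listed were measured and 1 fell. Tmem97 encodes a membrane protein, the sigma-2 receptor, that takes part in cholesterol transport. It averaged 5.85 ± 0.22 in BLZ945 and 6.50 ± 0.35 in Vehicle (SD, n = 8 each), a difference of -0.66 (limma adjusted p = 0.00853) with 6 of 8 BLZ945 mice below every Vehicle mouse. On the fatty acid side, 10 of 10 genes associated with SREBP-1 were measured, 2 fell and 0 rose, with a median of -0.23. The 2 were Fads1, a fatty acid desaturase, with -0.48 (adjusted p = 0.00952), and Me1, which supplies NADPH, with -0.80 (adjusted p = 0.039). Of the branches that take isoprenoids away from sterols, 10 of 14 genes were measured, with a median of -0.01. There the prenyl protein protease Rce1 rose by 0.37 (adjusted p = 0.0273) and 0 fell. The call of Me1 was lost, with adjusted p up to 0.0768, without BLZ945 mouse 1, 4, 5 or 6 or Vehicle mouse 1, 5, 6 or 8, and that of Rce1, with adjusted p up to 0.0571, without BLZ945 mouse 5 or 7 or Vehicle mouse 6 or 8. With the age cohort as covariate, Fads1 (-0.51, limma adjusted p = 0.0781) and Me1 (-0.90, adjusted p = 0.218) lost their calls. So did Rce1 (0.18, adjusted p = 0.481), whereas Tmem97 kept its call (-0.82, adjusted p = 0.0329). Me1 also lost its call with the mean of all probe sets (adjusted p = 0.0561), array weights (0.0785) and the array SD as covariate (0.0786).

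Several genes under LXR, which controls sterol export, rose. Of 8 LXR genes listed, 7 were measured, 4 rose and 0 fell, with a median of 0.54. Apoc1, an apolipoprotein, rose by 1.68 (limma adjusted p = 0.000351), and the cholesterol exporters Abcg1 and Abca1 rose by 0.81 (adjusted p = 0.000405) and 0.56 (adjusted p = 0.00677). Mylip, which encodes a ligase that marks the LDL receptor for degradation, rose by 0.54 (adjusted p = 0.039). Of 7 genes of sterol esters and oxysterols, 4 were measured, 2 with negative and 2 with positive differences and a median of 0.11. Lipa, the lysosomal acid lipase that frees cholesterol from its esters, rose by 0.63 (adjusted p = 0.00922), and 0 fell; Cyp7b1, which hydroxylates oxysterols, had -0.51 (adjusted p = 0.193) and Ch25h, which makes 25-hydroxycholesterol, had -0.17 (adjusted p = 0.867). The call of Mylip was lost, with adjusted p up to 0.0778, without BLZ945 mouse 2, 3, 5, 7 or 8 or Vehicle mouse 1, 2, 4, 6 or 8. The call of Abca1 was lost with the mean of all its probe sets (0.68, adjusted p = 0.139) and with its probe set of largest variance (0.86, adjusted p = 0.182). With the age cohort as covariate, only the mice of 11.29 weeks again inform the agent difference. In that fit the calls of Abca1 (0.37, limma adjusted p = 0.263), Abcg1 (0.66, adjusted p = 0.0591), Mylip (0.29, adjusted p = 0.429) and Lipa (0.44, adjusted p = 0.29) were lost, and that of Apoc1 was kept.

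Markers of other cells moved with the agent, and in sorted bulk samples fewer cells of a type and less RNA per cell cannot be told apart. Of 9 measured markers of glioma and oligodendrocyte precursor cells, 5 fell, and their mean log2 level was 4.90 to 6.67 in BLZ945 mice against 6.24 to 8.05 in Vehicle mice. All 9 measured proliferation markers fell, with mean levels of 4.62 to 6.93 in BLZ945 mice and 7.27 to 8.66 in Vehicle mice, which did not overlap. Of 6 astrocyte markers, 2 fell. Markers of oligodendrocytes, neurons, endothelial cells, neutrophils, and T and NK cells had 0 calls. Still, all 7 measured oligodendrocyte markers (median 0.22) and all 4 T and NK markers (median 0.43) had positive differences. Among the latter Gzma had 1.83 and narrowly missed the threshold (limma adjusted p = 0.0506). Of the 8 macrophage markers, Csf1r and Tyrobp were the brightest, and Itgam, the gene of the sorting marker CD11b, fell by 1.17 log2 units (limma adjusted p = 0.00807); the mean macrophage level was 11.60 to 12.06 in BLZ945 mice and 11.75 to 12.15 in Vehicle mice.

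With the glioma marker mean as a covariate, the 4 genes that had fallen kept negative but smaller differences. They were -0.59 for Idi1, -0.42 for Sqle, -0.37 for Fdps and -0.36 for Hmgcs1, against -0.87, -0.93, -0.50 and -0.64 without it. In the fit with this covariate 0 of the 10 genes passed (limma adjusted p of the 4 genes from 0.344 to 0.599), while 178 of all genes did. Tmem97 (-0.39, adjusted p = 0.458), Abca1 (0.70, adjusted p = 0.0576), Abcg1 (0.70, adjusted p = 0.0591), Mylip, Fads1, Me1 and Rce1 did not pass in that fit either, and Apoc1 and Lipa did. With the proliferation marker mean as the covariate the differences were between -0.62 for Sqle and -0.26 for Fdps, and 0 of all 12394 genes passed. The proliferation marker mean did not overlap between the groups, so this covariate and the agent cannot be told apart between them. Within groups, none of the 10 genes correlated with either marker mean at an adjusted p under 0.05 over 30 relations. For Sqle, r with the glioma marker mean was 0.55 over 16 mice (permutation p = 0.0277, adjusted p = 0.138; rho = 0.51, permutation p = 0.048), and without the 2 mice farthest from the median r was 0.47. For Idi1 it was 0.36 (permutation p = 0.193, adjusted p = 0.445; rho = 0.29, permutation p = 0.30).

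**Figure D3:**
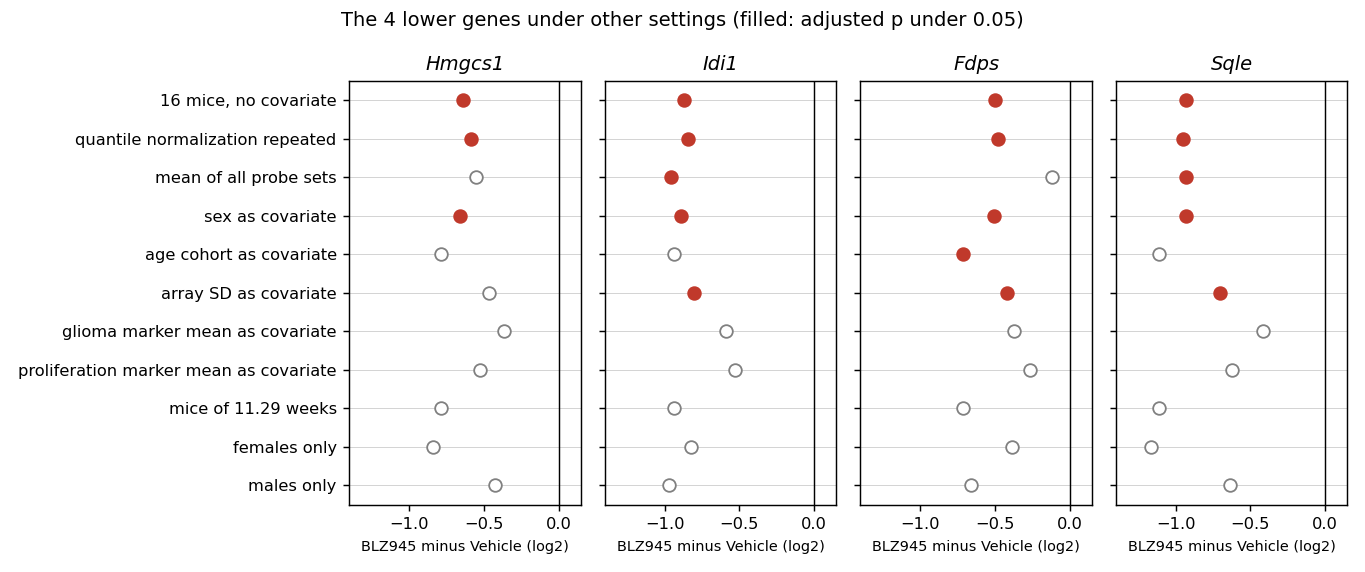
BLZ945 minus Vehicle in log2 units for Hmgcs1, Idi1, Fdps and Sqle under 11 settings, listed down the page, with filled red points for an adjusted p under 0.05 and open points otherwise. Every point lies below 0; the points with a glioma or a proliferation marker mean as covariate and those in subsets of the mice are all open.

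Labelled properties of the mice were set against the same genes. By sex, with the agent as covariate, 0 of the 10 genes passed limma's adjusted test against 0.0323% of all genes, and the adjusted p of the 10 lay between 0.544 and 0.994. At an unadjusted p under 0.05 there were 0 of the 10 and 1214 of all genes. The interaction of agent and sex called 0 of the 10 and 0% of all genes, and 0 and 414 at an unadjusted p under 0.05. Sqle differed by -1.16 between BLZ945 and Vehicle females and by -0.63 between BLZ945 and Vehicle males. Idi1 differed by -0.83 in females and by -0.97 in males. Within females alone 0 of the 10 genes and 3.17% of all genes passed, and within males alone 0 of the 10 and 0.0161% of all genes.

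Age and tumour volume were not balanced. At 11.29 weeks, the age found in both groups, there were 4 mice per agent, and there the 4 genes differed by -1.11 (Sqle), -0.94 (Idi1), -0.79 (Hmgcs1) and -0.71 (Fdps) without passing (adjusted p from 0.0647 to 0.211), while 89 of all genes passed. Between the older and the younger BLZ945 mice 0 of the 10 genes were called, against 0.0403% of all genes. Fdft1 had the smallest p of that comparison, with 5.91 ± 0.36 in older and 6.50 ± 0.49 in younger BLZ945 mice (SD, n = 4 each), a difference of -0.59 (limma adjusted p = 0.261), and was 1 of 2312 genes at an unadjusted p under 0.05. The labelled initial tumour volume, given without a unit, was 41.3 to 132.3 in 8 BLZ945 mice and 11.9 to 27.3 in the 6 Vehicle mice with a value. The labels give 4.5 to 40 mm3 as the range for enrolment, and all 8 BLZ945 values would lie above it if the unit were mm3. Volume and agent cannot be told apart between the groups. With log2 volume as a covariate in the 14 mice with a value, the 4 genes differed by -2.02 (Sqle), -1.51 (Hmgcs1), -0.89 (Idi1) and -0.73 (Fdps), and 0 of the 10 genes passed (adjusted p of the 4 from 0.061 to 0.185), against 0.121% of all genes. Within BLZ945 the slope on log2 volume called 0 of the 10 genes and 0% of all genes, with adjusted p of the 10 between 0.715 and 0.939, and at an unadjusted p under 0.05 there were 0 of the 10 and 846 of all genes.

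The 10 genes also varied among mice of the same group, and their deviations from the group mean were compared in 45 pairs over 16 mice. By Pearson's r, 14 pairs passed a permutation test with Benjamini-Hochberg adjustment over the 45 pairs, 11 of them positive, and 7 passed by both Pearson and Spearman. The median r over all pairs was 0.11. Fdft1 and Srebf2 ran against each other, with r = -0.89 (adjusted p = 0.00045, the raw permutation p of 1e-05 being the smallest that 100000 permutations can give) and rho = -0.88 (permutation p = 3e-05). Without the 2 mice farthest from the median r was -0.90, and it was -0.95 within BLZ945 and -0.87 within Vehicle. Fdft1 and Sqle varied together with r = 0.82 (permutation p = 7e-05, adjusted p = 0.00158) and rho = 0.71 (permutation p = 0.00356), and r was 0.75 without the 2 farthest mice. Hmgcs1 and Sqle had r = 0.68 (permutation p = 0.00665, adjusted p = 0.0428) and rho = 0.78 (permutation p = 0.00078), and r was 0.40 without the 2 farthest mice. The relations of Fdft1 hold for the probe set used, with which its others correlated at 0.48, -0.45 and -0.68.

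**Figure D4:**
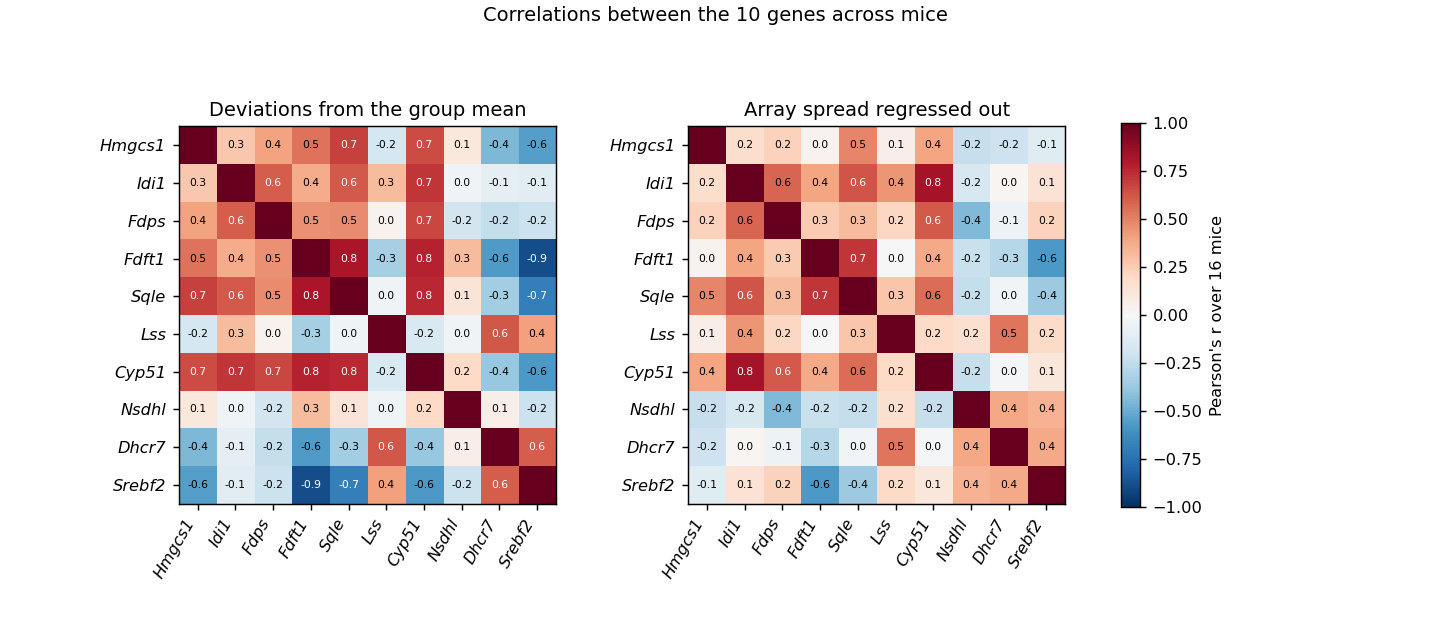
Pearson's r between each pair of the 10 genes over 16 mice, from deviations from the group mean (left) and after the spread of each array was also regressed out (right), on a colour scale from -1 (blue) to 1 (red). The block of red squares among Fdft1, Sqle, Cyp51 and Hmgcs1 and the blue square of Fdft1 with Srebf2, at -0.89, are paler on the right, where it is -0.57.

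Much of this variation moved with the spread of the array. The SD of all log2 values of an array was 2.22 to 2.43 in BLZ945 and 2.30 to 2.49 in Vehicle, and Vehicle mice 5, 6 and 7 had the highest values. Fdft1 followed it with r = 0.88 (permutation p = 9e-05, adjusted p over 30 relations = 0.0027) and rho = 0.79 (permutation p = 0.00087). Srebf2 ran against it with r = -0.84 (permutation p = 0.00026, adjusted p = 0.0039) and rho = -0.81 (permutation p = 0.00055). Without the 2 mice farthest from the median these r were 0.91 and -0.82. For Fdft1 these values hold for the probe set used. Within BLZ945, where Fdft1 had r = 0.95 with the array SD, that SD also differed by age. It was 2.22, 2.24, 2.32 and 2.35 in older and 2.28, 2.40, 2.41 and 2.43 in younger mice. A part of it in the age difference of Fdft1 was not tested. Cyp51 (r = 0.73, permutation p = 0.00221, adjusted p = 0.0221; rho = 0.66, permutation p = 0.00807) and Sqle (r = 0.64, permutation p = 0.00483, adjusted p = 0.0362; rho = 0.66, permutation p = 0.00722) also passed by Pearson's r, and the other 6 genes did not. For Idi1 r was 0.22 (permutation p = 0.434; rho = 0.10, permutation p = 0.724). With the spread regressed out, 1 of 45 pairs passed, Idi1 with Cyp51, at r = 0.83 (permutation adjusted p = 0.00855), against 0.71 before. With the same spread as a covariate of the agent comparison, Idi1, Fdps and Sqle were called, and Hmgcs1 differed by -0.47 (limma adjusted p = 0.0621).

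**Figure D5:**
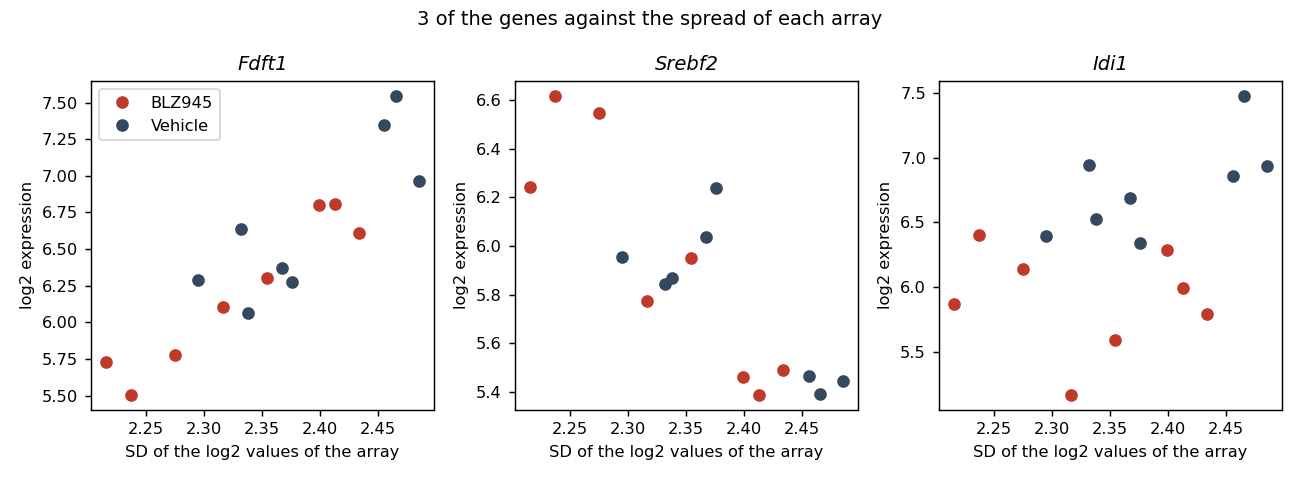
Log2 expression of Fdft1, Srebf2 and Idi1 (vertical axes) against the SD of the log2 values of the same array (horizontal axes), 1 point per mouse, BLZ945 in red and Vehicle in dark blue. Fdft1 climbs and Srebf2 declines along the axis in both groups, whereas the BLZ945 points of Idi1 lie below the Vehicle points at like spread.

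Genes outside the 10 whose deviations were most like the mean deviation of the 9 enzymes over the 16 arrays were Tpm2 (Pearson's r = 0.93), Gkap1 (0.91), Cbfb (0.90), Lxn (0.89), Lamb1 (0.88), Prss23 (0.88), Armcx4 (0.87), Ssr1 (0.87), Rpl14 (0.87) and Mageh1 (0.87). None of them is on the lists of the sterol pathway, and of the 10 only Ssr1 was called between the groups, with -0.51 (limma adjusted p = 0.0431). Msmo1 and Sc5d, the best-placed of the other sterol synthesis enzymes, ranked 488 and 515 of 12384 genes with r of 0.71 and 0.70. Hsd17b7, Mvk and Mvd of the same list had negative r (-0.66, -0.42 and -0.41), and the rest of it positive r. The points share the spread of the array, with which the mean deviation of the enzymes had r = 0.69.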

How the data were processed

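The authors' log2 values, 1 per probe set and array, were used as deposited. Per the submitters' processing notes GCOS 1.4 and RMA were used, with no role stated for either; neither the RMA implementation nor a genome build is given in the sources used here. RMA compresses differences of dim probe sets. Scanner intensities were not analysed here, which leaves background unjudged, and precision is limited by the number of arrays.

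Of 22690 probe sets, 20393 had 1 gene symbol in the platform annotation, 691 several and 1606 none; 20364 were found by gene identifier in RefSeq, and 0 symbols changed. The fitted probe set of a gene was that of highest mean over 16 arrays. The highest correlation between arrays was 0.991, so none was counted as a repeat. Groups came from the labelled agent, 1 mouse per sample. limma 3.58.1 (R 4.3.3; lmFit, eBayes) was run on 12394 genes with Benjamini-Hochberg adjustment; single-gene adjusted p-values are limma's. Differences are BLZ945 minus Vehicle. Correlations used deviations from group means and 100000 within-group permutations. The limma fits were tested on simulated data. Alternatives covered probe sets, dim genes, normalization, eBayes, weights, covariates, subsets, a replicate block and leaving out each mouse.

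The members and lists were chosen with earlier results of these data known. Named genes are the 10 members, every other listed gene that was called, or else the 2 with the smallest p of a list, the 10 genes most alike and bright markers. Mvk, Pmvk, Mvd, Msmo1, Sc5d, Hsd17b7, Cyp7b1, Ch25h and Gzma, the markers named for their calls and the printed windows were chosen after their values were seen.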

Additional observations from a re-analysis of the deposited data

Results flagged for a closer look

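Among 46 groups of 8 mice checked for a value far from the others, 0 of the 20 groups of the 10 sterol genes and 2 groups of neighbouring genes stood out; chance alone picks about 1 group in 20. Srebf1, the gene of SREBP-1, had its lowest BLZ945 value in mouse 1, at 8.03 log2 units against 8.64 in the next BLZ945 mouse. Abca1, the cholesterol exporter, had its lowest Vehicle value in mouse 2, at 11.88 log2 units against 12.47 in the next Vehicle mouse.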

How the results depend on the processing

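Of the 10 genes, 4 were called lower with no covariate, and 4 again after repeated quantile normalization, median centring, eBayes with trend and robust, array weights and sex as covariate. The count was 3 with the array SD as covariate. It was 2 with the mean of all probe sets, where Fdps had -0.11, with the probe set of largest variance, and without the dimmer 50% of genes, where 5 of the 10 could be fitted. It was 1 with the age cohort as covariate, where the differences of the 4 genes equal those in mice of 11.29 weeks, the only age in both groups. It was 0 with the glioma or the proliferation marker mean as covariate, with tumour volume in 14 mice (differences of the 4 genes -2.02 to -0.73), in mice of 11.29 weeks, in females alone and in males alone; the subsets hold fewer mice, and for the covariates the cause was not tested. Leaving out each mouse gave 2 to 4, with 2 without BLZ945 mouse 2 or 7 or Vehicle mouse 5, 6 or 7. Hmgcs1, Idi1, Fdps and Sqle had negative differences in every alternative run. With tumour volume as covariate Mylip reversed to -0.19 (limma adjusted p = 0.609), and the cause was not tested. With that covariate or the proliferation marker mean, Tmem97, Abca1, Abcg1, Mylip, Apoc1, Lipa, Fads1, Me1 and Rce1 all missed the threshold. The counts for sex, interaction, age and volume slope were 0 in every alternative run. Of the 45 pairs, 14 passed at first, 9 after quantile normalization and 1 with the array SD regressed out, a covariate whose correlation with the genes is given above.

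Replicate numbers did not pair the mice: 5 of 8 correlations of same-numbered deviations were over 0.1, and 3 of 16 mice correlated best with their own number. With the replicate block 4 of the 10 genes were called and 873 of all genes, against 984 without it; Me1 (adjusted p = 0.104) and Rce1 (adjusted p = 0.0542) lost their calls, and the other genes named as changed on the lists kept theirs. Signal over background could not be judged, since no scanner intensities were analysed here.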
